A study of Homo sapiens with 18 samples.

Results

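The small leucine-rich proteoglycans are secreted proteins whose repeats of a leucine-rich motif fold into a curved solenoid that binds collagen fibrils and growth factors. Many of them carry chondroitin, dermatan or keratan sulfate chains, and they are best known from cornea, cartilage, tendon and sclera, where they set the width and spacing of collagen fibrils. The 10 genes of this family are described here: LUM, DCN, KERA, EPYC, BGN, FMOD, PRELP, OGN, ASPN and OMD. They were matched by Ensembl identifier in an expression table of 57773 genes, and all 10 were found. The family was chosen on the known levels of some of its members in these same libraries (LUM in all clones, BGN in 2N-3 and 4N-3), so those levels are given as a description and without a p-value.

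The cells were RPE1, an immortalised line from human retinal pigment epithelium. An asynchronous culture received 2.5 uM ZM447439, an inhibitor of Aurora kinases that makes cells fail division, for 72 h, and after several weeks the survivors were cloned from single cells and classed as diploid or tetraploid by flow cytometry. The 3 diploid clones (2N-1, 2N-2 and 2N-3) and the 3 tetraploid clones (4N-1, 4N-2 and 4N-3) were picked from shared 96-well plates, so the diploid controls had met the drug as well. Clones 2N-2 and 4N-2 had in addition been stained with Hoechst 33342 before a further round of cloning. Each clone gave 3 libraries of stranded, polyA-selected RNA, named A, B and C, which makes 18 libraries. Every clone descends from 1 cell, so a difference between a diploid and a tetraploid clone is a difference between those 2 clones. The labels do not say that the 3 libraries of a clone came from separate cultures, and p-values then measure the spread between libraries, which may be technical. Clones with the same number were compared, as pair 1, pair 2 and pair 3.

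The deposited values were RPKM, reads per kilobase of gene scaled to library depth. Whole reads were recovered from their steps, with 37.1 to 54.2 M reads in genes per library. They are given below as reads or as reads per M (rpm) of the library size that the RPKM values imply. Reads in genes were 0.955 to 1.041 times that size. The 3 libraries of 4N-2 stood apart on the first principal component (36.4 to 39.6, against -17.5 to 2.56 in the other 15 libraries) and 2N-3 A on the second (55.6, against -9.83 to 0.54 in the other 17). In 4N-3 C 12 of 12 mitosis genes were lower than the mean of 4N-3 A and B, with a median log2 difference of -0.65. Of 12 markers of retinal pigment epithelium, 6 reached 1 rpm in 3 or more libraries: KRT8, KRT18, MITF, OTX2, LRAT and BEST1. RPE65, RLBP1, TYR and TYRP1, which define the mature tissue, stayed under 0.6 rpm. None of the 3 corneal keratocyte markers reached 1 rpm in 3 libraries.

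The family is divided by the spacing of 4 cysteines that cap the leucine-rich repeats at their amino-terminal end. The coding sequence of that stretch is shown for the 6 members that had reads enough for a test, since its spacing is one mark by which the classes of the family are told apart. The stretches were read 5′ to 3′ from GENCODE v29 transcripts (GRCh38), with the cysteine codons in capitals.
LUM: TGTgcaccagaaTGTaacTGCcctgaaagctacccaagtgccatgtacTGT
FMOD: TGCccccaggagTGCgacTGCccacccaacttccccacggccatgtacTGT
PRELP: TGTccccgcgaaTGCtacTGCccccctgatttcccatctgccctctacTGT
DCN: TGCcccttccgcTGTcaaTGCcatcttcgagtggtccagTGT
BGN: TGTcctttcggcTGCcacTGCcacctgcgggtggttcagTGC
EPYC: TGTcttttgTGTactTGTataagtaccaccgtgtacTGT
LUM, FMOD and PRELP have 3, 1 and 9 codons between the cysteines, as do KERA and OMD. DCN, BGN and ASPN have 3, 1 and 6, and EPYC and OGN have 2, 1 and 6. The LUM stretch covers codons 37 to 53 of 338, the FMOD stretch codons 76 to 92 of 376 and the PRELP stretch codons 73 to 89 of 382.

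EPYC, KERA, LUM and DCN lie side by side on the minus strand of chromosome 12 (GRCh38), EPYC at 90963679-91005026, KERA at 91050491-91057983, LUM at 91102629-91111831 and DCN at 91140484-91183123. The gaps between them are 45.5 kb, 44.6 kb and 28.7 kb. OGN (92383967-92404696), OMD (92414245-92424461) and ASPN (92456205-92482506) lie on chromosome 9, inside CENPP, which is read from the opposite strand. FMOD (203340628-203351758, minus strand) and PRELP (203475828-203491352, plus strand) are 124 kb apart on chromosome 1. BGN (153494939-153509554, plus strand) is on chromosome X, and its first bases overlap HAUS7 on the opposite strand.

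Promoters are shown for FMOD, PRELP, BGN and EPYC, the tested members that were matched in the RefSeq table; LUM and DCN were not matched. Each runs from 250 bases before to 50 bases after the RefSeq start (GRCh38.p14), 5′ to 3′ on the gene's own strand. Capitals mark matches, on either strand, to a core-promoter box (TATAAA) or to the motifs of AP-1 (TGANTCA), TEAD (GGAATG) or SP1 (GGGCGG). The windows are chr1:203351073-203351372 on the minus strand, chr1:203475556-203475855 on the plus strand, chrX:153494730-153495029 on the plus strand and chr12:91004923-91005222 on the minus strand.
FMOD: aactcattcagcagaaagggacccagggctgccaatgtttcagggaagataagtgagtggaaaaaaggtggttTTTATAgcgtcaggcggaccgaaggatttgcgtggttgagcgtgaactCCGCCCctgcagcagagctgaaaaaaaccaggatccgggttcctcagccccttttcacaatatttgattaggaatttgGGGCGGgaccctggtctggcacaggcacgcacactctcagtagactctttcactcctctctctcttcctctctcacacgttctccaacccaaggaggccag
PRELP: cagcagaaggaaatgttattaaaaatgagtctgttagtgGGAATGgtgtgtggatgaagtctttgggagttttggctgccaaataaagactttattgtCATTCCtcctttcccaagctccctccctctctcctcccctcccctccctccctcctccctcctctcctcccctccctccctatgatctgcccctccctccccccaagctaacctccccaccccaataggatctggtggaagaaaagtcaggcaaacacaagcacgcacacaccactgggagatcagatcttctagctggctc
BGN: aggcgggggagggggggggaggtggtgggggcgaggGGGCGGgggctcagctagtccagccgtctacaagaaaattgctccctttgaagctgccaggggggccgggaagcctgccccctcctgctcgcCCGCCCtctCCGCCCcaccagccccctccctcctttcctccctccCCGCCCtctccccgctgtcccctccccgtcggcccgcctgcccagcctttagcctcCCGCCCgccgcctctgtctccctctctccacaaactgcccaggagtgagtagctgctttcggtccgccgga
EPYC: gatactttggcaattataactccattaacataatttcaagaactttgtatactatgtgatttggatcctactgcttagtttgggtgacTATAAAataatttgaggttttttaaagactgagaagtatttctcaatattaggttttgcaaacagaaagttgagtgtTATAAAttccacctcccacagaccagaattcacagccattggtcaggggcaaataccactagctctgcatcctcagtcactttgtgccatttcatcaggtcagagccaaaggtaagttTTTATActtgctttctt
FMOD holds 1 TATAAA at position -177 and 2 GGGCGG at -129 and -51, counted from the start. PRELP holds 2 GGAATG, at -211 and -152. BGN holds 5 GGGCGG between -214 and -21, and EPYC holds 3 TATAAA between -162 and 33. Neither TGANTCA nor CANNTG (E-box), which was also searched, is in these windows. Of 35116 RefSeq promoters of the same length, 11.5% hold TATAAA, 7.71% TGANTCA, 14.0% GGAATG, 45.0% GGGCGG and 68.7% CANNTG. The G and C content is 52.3% in FMOD, 52.7% in PRELP, 71.7% in BGN and 36.0% in EPYC, against a median of 58.7% over all promoters. A match is a match of letters only.

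LUM made up most of the family's RNA in 5 of the 6 clones, and FMOD with PRELP made up most of it in 4N-2. Lumican, the product of LUM, is a keratan sulfate proteoglycan that spaces collagen fibrils in the cornea. Its share of the family's reads was 85.5% ± 0.69 (SD, n = 3 libraries, as below) in 2N-1, 93.9% ± 0.10 in 4N-1, 83.0% ± 0.36 in 2N-2, 74.8% ± 1.17 in 2N-3 and 95.6% ± 0.39 in 4N-3. In 4N-2 that share was 0.214% ± 0.21, and FMOD held 62.5% ± 1.79 and PRELP 35.3% ± 1.86. BGN held 15.7% ± 1.66 in 2N-3, and FMOD 9.20% ± 0.24 in 2N-2. The whole family came to 29.4 ± 1.90 rpm in 2N-1, 135 ± 7.71 in 4N-1, 52.8 ± 4.91 in 2N-2, 22.4 ± 1.97 in 4N-2, 39.8 ± 2.51 in 2N-3 and 69.9 ± 23.6 in 4N-3. Fewer reads of a gene in a clone can mean fewer cells that express it or less RNA per cell, which bulk libraries cannot tell apart.

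**Figure D1:**
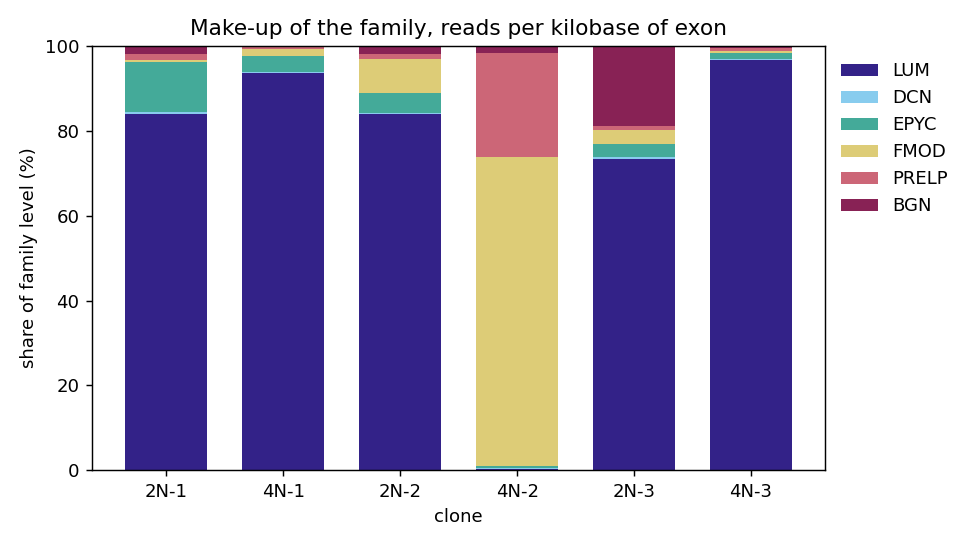
Make-up of the family in each clone as percent of its summed level, on rpm per kilobase of merged exons; each bar is the mean of 3 libraries. LUM fills 73.3% to 96.6% of the bar in 5 clones and 0.283% in 4N-2, where FMOD fills 72.8% and PRELP 24.3%.

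Per kilobase of merged exons, LUM stood at 8.36 rpm per kb in 2N-1, 42.1 in 4N-1, 14.6 in 2N-2, 9.89 in 2N-3 and 22.2 in 4N-3, first of the 10 members in each. It was also first in these clones on the deposited RPKM scale, whose length is the genomic span with introns, and per kilobase of the transcript with the longest coding sequence. In 4N-2 the order on all 3 scales opened with FMOD (4.10 rpm per kb of merged exons), PRELP (1.38) and BGN (0.088). The lower places depended on the length used: of 6 members, 2 to 4 changed place between RPKM and merged exons in the other 5 clones. EPYC, whose span of 41348 bases holds 1805 bases of exon, moved from place 6 by RPKM to place 2 by merged exons in 4N-3.

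KERA, OGN, ASPN and OMD were at or near 0 everywhere. KERA, the gene of keratocan in the corneal stroma, had 3 reads over all 18 libraries, and OGN, the gene of osteoglycin, had 3. ASPN, the gene of asporin in cartilage and the periodontal ligament, had 15 reads with at most 3 in a library. OMD, the gene of osteomodulin in bone, had 0 reads in all libraries, which allows up to 3 reads in each by counting alone. These 4 were not tested. The other 6 passed a minimum of 10 reads in 3 libraries and were tested with limma-voom among 23387 genes. On the RPKM scale only LUM and FMOD reached 1 RPKM in 3 libraries and were tested with limma among 9704 genes, FMOD through 4N-2 alone, where it is high, so its presence there is no result.

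LUM was higher in the tetraploid clone of pairs 1 and 3 and almost without reads in the tetraploid clone of pair 2. The 3 libraries of 2N-1 had 26.6, 25.2 and 23.5 rpm and those of 4N-1 122, 122 and 135 rpm. In pair 2 the values were 44.2, 47.5 and 39.7 rpm in 2N-2 and 0.101, 0.050 and 0 rpm in 4N-2. In pair 3 they were 31.0, 30.2 and 28.0 rpm in 2N-3 and 56.5, 51.5 and 92.4 rpm in 4N-3. The groups did not overlap in any pair, and 4N-3 C was the highest of its clone. The share of all genes whose libraries do not overlap in a pair was not counted, so nothing is read from overlap here or below. In reads, 4N-2 had 4, 2 and 0 where 2N-2 had 2193, 2600 and 1799. The order of the clones was 4N-1, 4N-3, 2N-2, 2N-3, 2N-1 and 4N-2. The libraries of 2N-3 (28.0 to 31.0) lay above those of 2N-1 (23.5 to 26.6) without overlap.

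The fitted log2 difference of LUM on reads was 2.33 (SE 0.17) in pair 1, -10.03 (SE 0.73) in pair 2 and 1.12 (SE 0.17) in pair 3. As a ratio of summed rpm, 4N-1 was 5.02 times 2N-1 (95% exact binomial interval 4.83 to 5.22), and 4N-3 was 2.26 times 2N-3 (2.17 to 2.35). In pair 2 the level in 2N-2 was 909 times that in 4N-2 (417 to 2478). Intervals of this kind cover counting error only. On log2(RPKM + 0.5) the differences were 2.14, -3.38 and 1.01 (SE 0.14 each). On reads, leaving out 4N-2 A gave -10.72 in pair 2 and leaving out 4N-2 C gave -9.01, so the size of that fold rests on 6 reads. The RPKM scale compresses values near 0, hence the smaller figure in pair 2. The pair 3 difference rests in size on 4N-3 C: without that library it was 0.86 on reads and 0.77 on RPKM, both under 2-fold. The 12 mitosis genes, summed, went the other way from LUM in pairs 1 and 2 and overlapped in pair 3. They stood at 1756 to 2195 rpm in 2N-1 and 732 to 779 in 4N-1. In pair 2 they stood at 1573 to 1996 in 2N-2 and 2505 to 2684 in 4N-2. In pair 3 they stood at 1748 to 2199 in 2N-3 and 1545 to 2515 in 4N-3. All 12 markers of that list reached 1 rpm, and their part in the levels of LUM and of the other members was not tested.

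**Figure D2:**
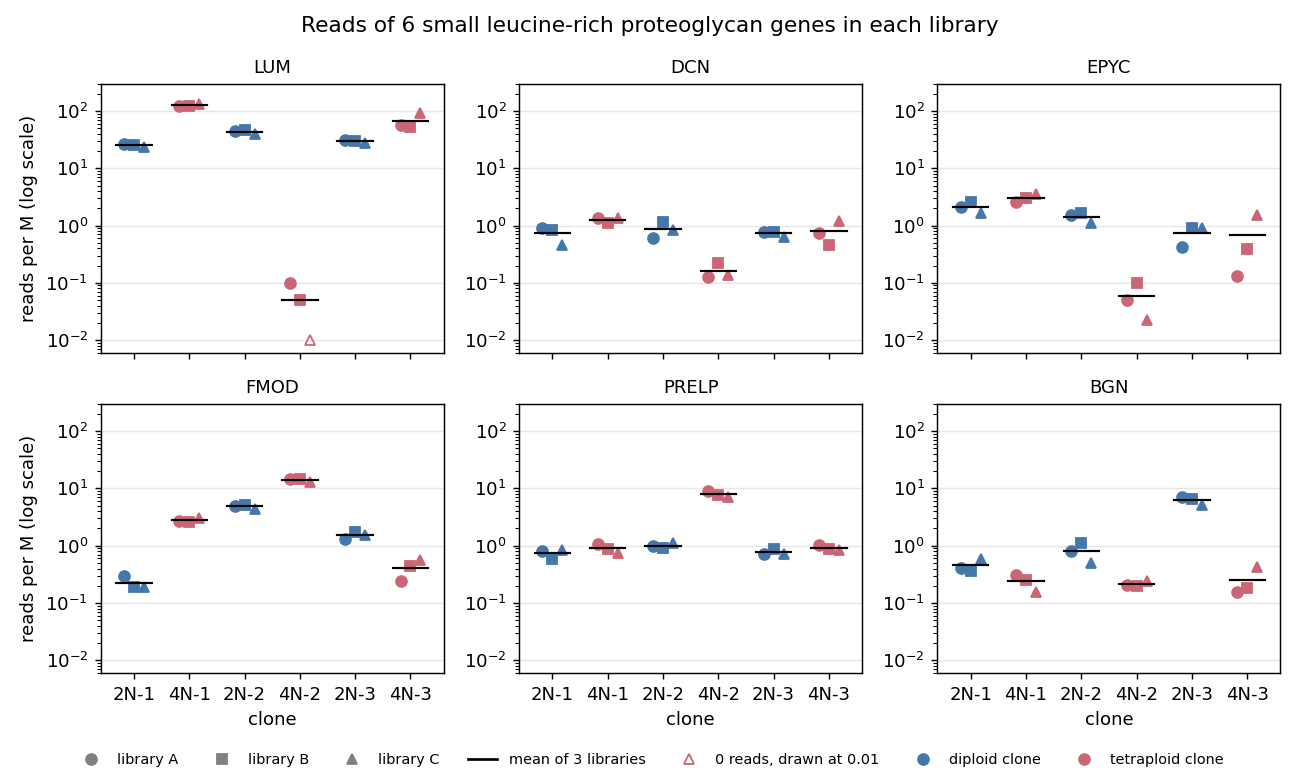
Reads per M (rpm) on a log axis in each of 18 libraries for the 6 tested members; circles, squares and triangles are libraries A, B and C, bars the clone means, and the open triangle 0 reads. LUM, DCN and EPYC are lowest in 4N-2, FMOD and PRELP highest in 4N-2, and BGN highest in 2N-3.

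FMOD encodes fibromodulin, a keratan sulfate proteoglycan that binds collagen in tendon and cartilage. It rose in pairs 1 and 2 and fell in pair 3. The libraries of 2N-1 had 13, 8 and 7 reads and those of 4N-1 had 114, 123 and 137. In pair 2 the libraries had 249, 282 and 199 reads in 2N-2 and 575, 574 and 574 in 4N-2. In pair 3 there were 48, 74 and 67 reads in 2N-3 and 9, 19 and 24 in 4N-3. No pair overlapped. The levels ran from 0.226 rpm in 2N-1 and 0.412 in 4N-3 through 1.53 in 2N-3, 2.78 in 4N-1 and 4.85 in 2N-2 to 14.0 in 4N-2. Only 2N-1 (0.189 to 0.297 rpm) and 4N-3 (0.238 to 0.564 rpm) overlapped among neighbours in that order.

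The log2 difference of FMOD on reads was 3.56 (SE 0.28, limma-voom adjusted p = 9.39e-08) in pair 1. It was 1.52 (SE 0.12, limma-voom adjusted p = 3.23e-08) in pair 2 and -1.92 (SE 0.25, limma-voom adjusted p = 6.15e-05) in pair 3. The ratio of summed levels was 12.1 (8.25 to 18.5) in pair 1 and 2.85 (2.61 to 3.11) in pair 2, and 2N-3 was 3.68 times 4N-3 (2.69 to 5.10). On log2(RPKM + 0.5) the same differences were 0.54, 0.91 and -0.25 (SE 0.06), and none reached 2-fold; no p is given on that scale, which FMOD entered through 4N-2. Since FMOD lies under 0.5 RPKM in 5 clones, the pseudocount shrinks its changes there. The difference between pairs 1 and 2 changes sign with the scale: it was -0.38 on RPKM, 0.22 with a pseudocount of 0.1 RPKM and 2.04 on reads.

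PRELP encodes prolargin, which links basement membranes to connective tissue. It rose in pair 2 and passed the test in neither other pair. The libraries of 2N-2 had 50, 50 and 50 reads and those of 4N-2 had 356, 308 and 310, with no overlap. Pair 1 had 35, 24 and 31 reads in 2N-1 and 46, 42 and 34 in 4N-1. Pair 3 had 26, 37 and 32 in 2N-3 and 39, 39 and 36 in 4N-3. Once scaled to depth, pairs 1 and 3 overlapped. The 5 clones other than 4N-2 had means of 0.739 to 1.01 rpm, against 7.90 ± 1.05 rpm in 4N-2. The log2 difference in pair 2 was 2.96 (SE 0.16, limma-voom adjusted p = 1.38e-10), a ratio of 7.85 (6.60 to 9.38). In pairs 1 and 3 it was 0.30 (SE 0.21) and 0.25 (SE 0.21), with limma-voom adjusted p of 0.378 and 0.501. The pair 2 difference exceeded that of pair 1 by 2.66 and that of pair 3 by 2.71 on the log2 scale.

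DCN encodes decorin, which carries 1 chondroitin or dermatan sulfate chain, binds collagen and holds TGF-beta. It fell in pair 2. The libraries of 2N-2 had 30, 64 and 38 reads and those of 4N-2 had 5, 9 and 6. Pair 1 had 39, 35 and 17 reads in 2N-1 and 58, 52 and 61 in 4N-1. Pair 3 had 28, 33 and 28 in 2N-3 and 28, 20 and 52 in 4N-3. Only pair 3 overlapped after scaling to depth. The log2 differences were 0.82 (SE 0.31, limma-voom adjusted p = 0.0758), -2.34 (SE 0.44, adjusted p = 3.44e-04) and 0.04 (SE 0.33, adjusted p = 0.951) in pairs 1, 2 and 3. In pair 2 the level in 2N-2 was 5.46 times that in 4N-2 (3.40 to 9.23).

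EPYC encodes epiphycan, a dermatan sulfate proteoglycan of growth cartilage. It fell in pair 2 as well. The libraries of 2N-2 had 75, 89 and 50 reads and those of 4N-2 had 2, 4 and 1. Pair 1 had 91, 106 and 62 in 2N-1 and 109, 143 and 158 in 4N-1. Pair 3 had 15, 38 and 39 in 2N-3 and 5, 17 and 65 in 4N-3. The 3 libraries of 4N-3 spread widely, with C at 5.85 times the mean of A and B. The log2 differences were 0.53 (SE 0.34, limma-voom adjusted p = 0.324), -4.53 (SE 0.82, adjusted p = 2.40e-04) and -0.64 (SE 0.55, adjusted p = 0.505). In pair 2 the level in 2N-2 was 25.3 times that in 4N-2 (12.1 to 63.7). Without 2N-3 A and 4N-3 C together the pair 3 difference was -1.86, with a limma-voom adjusted p of 0.00733.

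BGN encodes biglycan, the close relative of decorin, which carries chondroitin or dermatan sulfate chains and signals through Toll-like receptors. It stood out in 2N-3, with 255, 282 and 224 reads against 6, 8 and 18 in 4N-3. In pair 2 the libraries had 40, 61 and 23 reads in 2N-2 and 8, 8 and 11 in 4N-2. Pair 1 had 18, 15 and 22 reads in 2N-1 and 13, 12 and 7 in 4N-1. The tetraploid libraries were lower without overlap in each pair, from which nothing is read, as stated above. Pair 1 did not pass the test, and the levels of pair 3 are among those on which the family was chosen. The mean level was 6.26 ± 1.02 rpm in 2N-3 and 0.217 to 0.809 rpm in the other 5 clones. The log2 difference was -0.92 (SE 0.42, limma-voom adjusted p = 0.141) in pair 1 and -1.79 (SE 0.39, limma-voom adjusted p = 0.00126) in pair 2. In pair 3 it was -4.65 (SE 0.35), and the level in 2N-3 was 24.0 times that in 4N-3 (16.9 to 35.4). HAUS7, a subunit of the spindle augmin complex that overlaps the BGN start on the opposite strand, had log2 differences of -0.77, 0.46 and -0.15, and its part in the BGN reads was not tested.

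Counted over the 6 tested members, pair 1 had 2 higher (LUM and FMOD) and 0 lower, where 2.3% of all 23387 genes were called higher and 2.68% lower. Pair 2 had 2 higher (FMOD and PRELP) and 4 lower (LUM, DCN, EPYC and BGN), against 6.88% of all genes higher and 8.13% lower. Pair 3 had 1 higher (LUM) and 2 lower (BGN and FMOD), against 1.07% and 1.45%. Called means a Benjamini-Hochberg adjusted p under 0.05 over all genes tested and a change of 2-fold or more. LUM in each pair and BGN in pair 3 are among the values on which the family was chosen, so nothing is read from these counts. The median log2 difference of the 6 members was 0.67, -2.07 and -0.30 in pairs 1, 2 and 3, and that of all genes tested 0.02, -0.02 and 0.02. Without 2N-3 A and 4N-3 C, pair 3 again had 3 called members, but with EPYC in the place of LUM. Of 9704 genes tested on RPKM, 1.45% were called in pair 1, 4.84% in pair 2 and 0.33% in pair 3. There LUM was past 2-fold in all 3 pairs and FMOD in none. The levels of LUM were known beforehand and FMOD entered that scale through 4N-2, so both are given as a description.

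**Figure D3:**
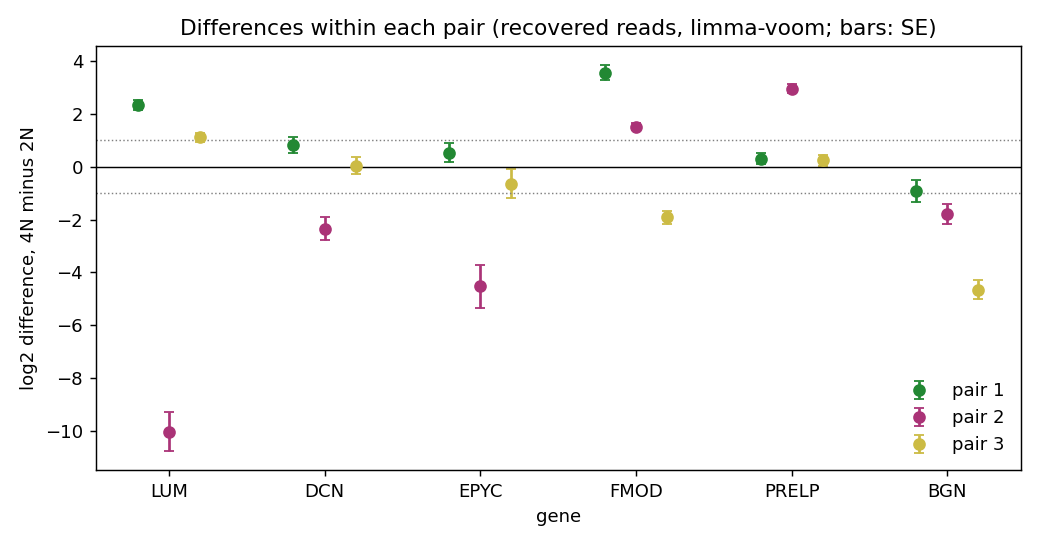
Log2 difference of the tetraploid from the diploid clone in each pair for the 6 tested members, from recovered reads; bars are SE and dotted lines mark 2-fold. LUM spans 2.33 in pair 1 to -10.03 in pair 2, FMOD 3.56 in pair 1 to -1.92 in pair 3, and PRELP stands at 2.96 in pair 2 and at 0.30 and 0.25 in pairs 1 and 3.

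Clones of 1 ploidy differed as well. Among the 3 diploid clones LUM spanned 0.70 and FMOD 0.86 on log2(RPKM + 0.5), both under 2-fold on that scale, and 0.289% of genes were called. The pseudocount shrinks the span of FMOD, which was 2.18 with a pseudocount of 0.1 RPKM. In rpm FMOD stood at 0.226 in 2N-1, 4.85 in 2N-2 and 1.53 in 2N-3. BGN, not tested on RPKM, stood at 0.456, 0.809 and 6.26 rpm in the same clones. Among the 3 tetraploid clones LUM spanned 4.82 and FMOD 1.73, and 8.51% of genes were called. With each clone as 1 value, the mean tetraploid minus diploid difference was -0.07 (SE 0.98) for LUM. For FMOD it was 0.40 (SE 0.31). In that comparison limma called 0 of 9704 genes (0%), with 391 at an unadjusted p under 0.05.

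Genes beside the clusters were measured as well. On chromosome 12, CCER1, 8.5 kb beyond EPYC, had at most 3 reads in a clone. The nearest expressed genes were BTG1, an antiproliferative gene 957 kb beyond DCN, and ATP2B1, a plasma membrane calcium pump 1254 kb beyond EPYC. In pair 2, where LUM, DCN and EPYC had their lowest values, BTG1 differed by -0.10 (limma-voom adjusted p = 0.466) and ATP2B1 by -0.80 (limma-voom adjusted p = 1.45e-04, under 2-fold). On chromosome 1, BTG2, a p53 target 31.0 kb from FMOD, rose in all 3 pairs, by 1.21, 3.31 and 1.50 on the log2 scale (limma-voom adjusted p = 6.72e-07, 2.60e-13 and 2.49e-07). CHI3L1, a secreted chitinase-like protein 154 kb from FMOD, fell in all 3 pairs, with log2 differences of -4.02, -3.32 and -2.82 (limma-voom adjusted p = 6.78e-08, 2.88e-06 and 3.72e-06). OPTC, which encodes the related opticin 2.79 kb beyond PRELP, had at most 5 reads in a clone. ATP2B4, 135 kb beyond PRELP, differed by 0.57 in pair 2 (limma-voom adjusted p = 0.0207, under 2-fold). On chromosome 9, ECM2, a related leucine-rich repeat gene 11.0 kb beyond ASPN, rose in pair 2 by 1.57 (limma-voom adjusted p = 3.86e-06). ECM2 differed by -0.48 in pair 1 and 0.81 in pair 3 (limma-voom adjusted p = 0.205 and 0.0444), both under 2-fold.

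**Figure D4:**
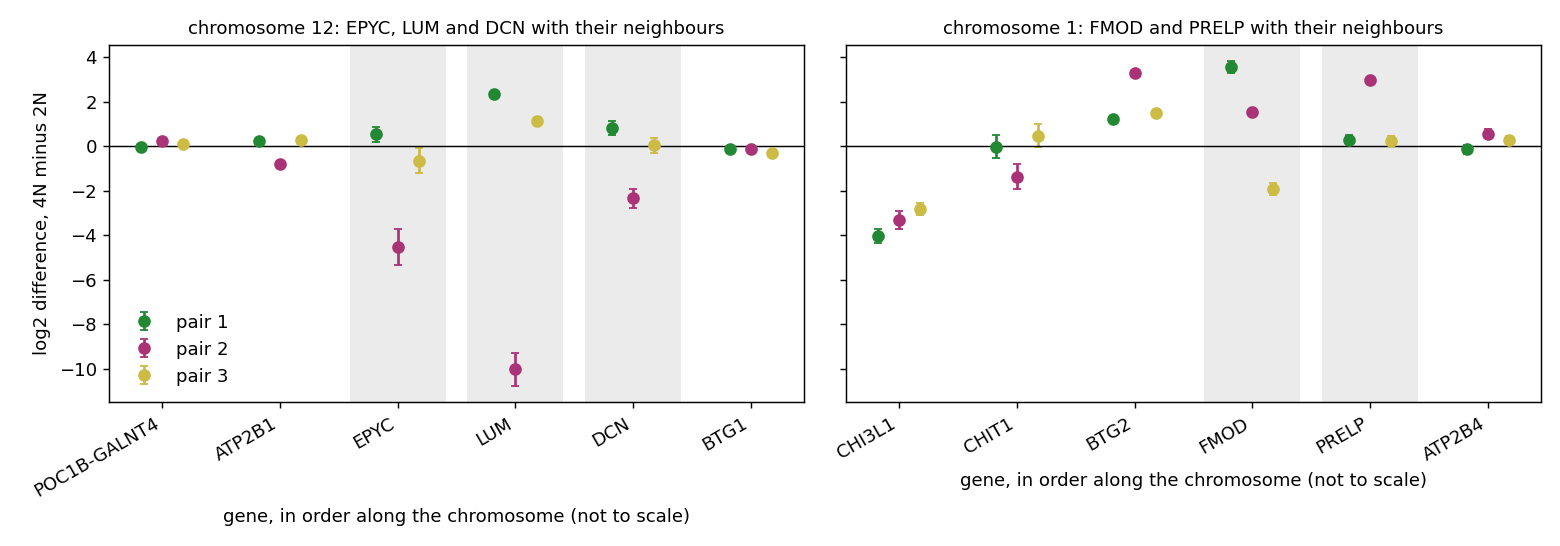
Log2 difference in each pair for tested genes along chromosome 12 and chromosome 1 in genomic order, not to scale; bars are SE and grey bands mark the members. In pair 2 EPYC, LUM and DCN lie at -4.53, -10.03 and -2.34 and BTG1 at -0.10; BTG2 lies above 0 and CHI3L1 below 0 in all 3 pairs.

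The enzymes that build the sugar chains were taken from lists by step. None of the 7 genes for chain initiation and the linker was called in any pair. Of 15 tested chondroitin and dermatan sulfate genes, 1, 2 and 0 rose in pairs 1, 2 and 3 and 0 fell. Of all genes tested, 2.3%, 6.88% and 1.07% were called higher in these pairs and 2.68%, 8.13% and 1.45% lower. CHST15, a chondroitin sulfotransferase, rose by 1.01 in pair 1 (limma-voom adjusted p = 6.60e-05) and by 2.44 in pair 2 (limma-voom adjusted p = 1.90e-10). DSEL, a dermatan sulfate epimerase homologue, rose by 1.08 in pair 2 (limma-voom adjusted p = 1.06e-05). In pair 1 DSEL differed by -0.79 (limma-voom adjusted p = 0.00109, under 2-fold). Of 8 tested keratan sulfate genes, 1 fell in pair 1 and 2 rose in pair 2. The 2 that rose were the sulfotransferases CHST4, from 5 reads in 2N-2 to 46 in 4N-2, and CHST1, from 15 to 76. The 1 that fell was CHST4, with 8 reads in 2N-1 and 0 in 4N-1, where no library of either clone reached the minimum of 10 reads. Both genes reached the read minimum only through 4N-2, so their being higher there is no result, and no other gene of that list was called in any pair. The median log2 differences in pairs 1, 2 and 3 were 0.05, 0.16 and -0.02 for the linker genes, 0.03, 0.05 and 0.23 for the chondroitin and dermatan sulfate genes, and 0.22, 0.15 and 0.01 for the keratan sulfate genes.

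Of 9 tested fibrillar collagens, which the family's proteins bind, pair 1 had 2 higher and 1 lower, pair 2 had 1 higher and 3 lower, and pair 3 had 1 higher and 2 lower. COL11A1, a minor fibrillar chain, rose by 1.35 in pair 1 and had differences of -3.96 in pair 2 and -1.08 in pair 3 (limma-voom adjusted p = 1.04e-04, 2.63e-08 and 0.00762). COL1A2, a chain of type I collagen, was low, with 63 reads in 2N-1 and 32 in 4N-1, 68 in 2N-2 and 7 in 4N-2, and 20 in 2N-3 and 59 in 4N-3. COL5A1, a chain of type V collagen, had 3 reads in 2N-2 and 22 in 4N-2, and 40 in 2N-3 and 3 in 4N-3. It reached the read minimum only with the libraries of 2N-3, so its place among the lower genes of pair 3 is no result. Of 15 tested growth factors, receptors and matrix proteins that bind the family, 4 rose in pair 1 and 3 fell in pair 2. TGFB2, a TGF-beta ligand, rose by 1.44 in pair 1 (limma-voom adjusted p = 2.64e-07), from 108 to 293 rpm. In pair 2 TGFB2 differed by -0.59 (limma-voom adjusted p = 7.16e-04, under 2-fold). BMP4, a bone morphogenetic protein, rose by 1.08 in pair 1 and had a difference of -1.67 in pair 2 (limma-voom adjusted p = 6.38e-06 and 2.75e-08). TLR2, the Toll-like receptor through which biglycan signals, went from 10 reads in 2N-1 to 122 in 4N-1. The medians were 0.44, -0.88 and 0.27 for the collagens in pairs 1, 2 and 3, and -0.01, -0.59 and 0.34 for the binding partners.

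Among 8 tested proteases that cut these proteins, 1 rose and 1 fell in pair 2 and 1 rose in pair 3. ADAMTS5, an aggrecanase, rose by 1.27 in pair 2 (limma-voom adjusted p = 1.80e-05). It was also higher in pairs 1 and 3, by 0.68 and 0.94 (limma-voom adjusted p = 0.00755 and 0.00594), both under 2-fold. TLL1, a procollagen proteinase, was the gene that fell in pair 2 (40 reads in 2N-2, 14 in 4N-2) and the one that rose in pair 3 (18 and 48). Among 13 tested core proteins of other proteoglycans, 2 rose and 2 fell in pair 2 and none was called in pairs 1 and 3. GPC6, a glypican, had a difference of -3.28 in pair 2 (limma-voom adjusted p = 1.51e-11), from 104 to 10.7 rpm. SDC4, a syndecan, rose by 1.37 (limma-voom adjusted p = 2.62e-10), and GPC4, another glypican, had 0 reads in 2N-2 and 234 in 4N-2. Of 5 tested relatives of the family, 2 rose and 2 fell in pair 2; CHADL went from 22 to 230 reads and PODN, the gene of podocan, from 47 to 5. GPC4 and CHADL reached the read minimum only with the libraries of 4N-2, so their being higher there is no result; they are 1 of the 2 that rose in each of those lists. The medians in pairs 1, 2 and 3 were 0.36, -0.27 and 0.11 for the proteases, 0.11, 0.36 and 0.07 for the other core proteins and -0.02, 0.43 and -0.20 for the relatives. Those of all genes were 0.02, -0.02 and 0.02. These lists are described by their counts and were chosen with earlier results of these data known. The shares of all genes called stand above: 2.3% higher and 2.68% lower in pair 1, 6.88% and 8.13% in pair 2, and 1.07% and 1.45% in pair 3.

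The genes whose clone means were most like those of LUM over the 6 clones, by the mean absolute difference of centred log2(RPKM + 0.5) values, were ENSG00000261425 (0.50), MYL9, a myosin light chain of smooth muscle (0.59), and MT-TL1, a mitochondrial tRNA gene (0.60). The median over all 9704 genes was 1.11. For FMOD they were ADAMTSL4 (0.17), AL590644.1 (0.18) and S100A10 (0.20), with a median over all genes of 0.51. All are on chromosome 1, but the share of all tested genes on that chromosome was not counted. FMOD entered this scale through 4N-2, and the pseudocount shrinks its changes in the other clones, so nothing is read from this likeness. ADAMTSL4 stood at 0.493 RPKM in 2N-1 and 0.537 in 4N-1, and at 0.555 in 2N-3 and 0.440 in 4N-3. Markers of smooth muscle, where MYL9 is also expressed, are given beside LUM. Of 5 such markers 3 reached 1 rpm in 3 libraries, and their sum ranged over 127 to 141 rpm in 2N-1, 566 to 594 in 4N-1, 139 to 152 in 2N-2, 221 to 233 in 4N-2, 169 to 296 in 2N-3 and 303 to 398 in 4N-3. DES and CNN1, 2 of that list's defining genes, stayed under 0.7 rpm. The 6 markers of fibroblasts and stroma, of which 5 reached 1 rpm in 3 libraries, summed to 691 to 709 rpm in 2N-1, 833 to 849 in 4N-1, 718 to 792 in 2N-2, 1004 to 1099 in 4N-2, 721 to 762 in 2N-3 and 752 to 867 in 4N-3. Within that list COL1A1, a chain of type I collagen, was highest in 4N-1 and lowest in 4N-2, as was LUM. Its clone means were 46.2, 153, 58.4, 33.0, 62.8 and 75.1 rpm in 2N-1, 4N-1, 2N-2, 4N-2, 2N-3 and 4N-3. PDGFRB and FAP had the same highest and lowest clones, and PDGFRA, THY1 and COL3A1 did not. PDGFRB was at 101 rpm in 2N-3 and 77.4 in 4N-3, where LUM was higher in 4N-3. PDGFRA was at 5.76 rpm in 2N-1 and 2.21 in 4N-1, and at 4.31 in 2N-3 and 1.93 in 4N-3. THY1, a surface protein, was at 299 rpm in 2N-2 and 827 in 4N-2, and COL3A1 stayed under 0.5 rpm in all libraries. The part of either list in the LUM levels was not tested. The library 4N-3 C, with its lower mitosis genes, had LUM at 1.71 times the mean of 4N-3 A and B, DCN at 2.04, BGN at 2.47, FMOD at 1.67 and PRELP at 0.88 times, and the part of that library's state in pair 3 was not tested beyond leaving it out.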

How the data were processed

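RNA was measured in 18 libraries of 6 RPE1 clones, 3 libraries per clone. The deposited table holds RPKM per gene, which the authors made with CASAVA 1.8.2, TopHat2 and edgeR on hg19, per the submitters' processing notes. The annotation release and whether counting used strand are not given in the sources used here. Of 24544 well-covered genes, 87.2% had an implied length within 0.5% of their GENCODE v29 genomic span, so the deposited RPKM are per kilobase of span, introns included.

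Whole reads were recovered from the RPKM steps; 99.6% of values came out whole within 0.01 reads, and 10 genes that did not were left out. Totals were 37.1 to 54.2 M reads per library. The limma 3.58.1 package (R 4.3.3) was run on log2(RPKM + 0.5) for genes with 1 RPKM in 3 libraries, and limma-voom on the recovered reads for genes with 10 reads in 3 libraries, with 1 mean per clone over all 18 libraries and Benjamini-Hochberg adjustment over all genes tested; 1164, 3509 and 589 genes were called on reads in pairs 1, 2 and 3. Both were tested on simulated data. The members and the related gene lists were chosen with earlier results of these data known. Named genes were all members, up to 3 called genes of each list with the largest change, the 3 nearest coding genes on each side of a cluster, and the 3 genes most like LUM and FMOD. Alternatives were other pseudocounts, no minimum, only the libraries of a pair, a replicate block, TMM scaling on reads, and leaving out libraries. Coordinates are those of GRCh38, not of hg19.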

Additional observations from a re-analysis of the deposited data

Results flagged for a closer look

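The differences between tetraploid and diploid clones were compared between pairs in limma-voom on recovered reads, over 6 members and 3 contrasts, and 14 of 18 contrasts passed an adjusted p under 0.05 over all genes. The contrasts of LUM, and those of BGN that hold pair 3, use levels on which the family was chosen and are a description. Without them 9 of 13 passed. All 14 were also 2-fold or more. By both cuts 4354, 1036 and 3437 of all 23387 genes were called in pair 1 minus 2, 1 minus 3 and 2 minus 3. At an unadjusted limma-voom p under 0.05 there were 10608, 5971 and 9492 genes. For LUM the log2 difference was larger in pair 1 than in pair 2 by 12.36 and than in pair 3 by 1.21, and pair 2 minus pair 3 was -11.15. DCN differed by 3.16 between pairs 1 and 2 and by -2.38 between pairs 2 and 3. EPYC differed by 5.06 and -3.88 in the same contrasts. BGN, in the contrasts with pair 3, differed by 3.74 between pairs 1 and 3 and by 2.86 between pairs 2 and 3. FMOD differed in all 3 contrasts, by 2.04 (pair 1 minus 2), 5.48 (pair 1 minus 3) and 3.44 (pair 2 minus 3). PRELP differed by -2.66 between pairs 1 and 2 and by 2.71 between pairs 2 and 3. The contrasts share clones with each other.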

How the results depend on the processing

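Counts of genes called on RPKM moved with the pseudocount. With 0.1 and 1 RPKM in place of 0.5, pair 1 went from 141 to 271 and 78, pair 2 from 470 to 707 and 312, pair 3 from 32 to 58 and 20, and the diploid clones from 28 to 50 and 13; the tetraploid clones went from 826 to 536 with 1 RPKM. With only the pair's own libraries, pair 3 had 2 called genes. Leaving out each library in turn gave 27 to 55 genes in pair 3, with 55 without 2N-3 C. FMOD passed 2-fold on RPKM with the lower pseudocount (1.56 in pair 1, 1.34 in pair 2 and a span of 2.18 among diploid clones). Its difference between pairs 1 and 2, -0.38 on RPKM, turned to 0.22 with that pseudocount. On reads, a contrast added after the data were seen, it was 2.04. LUM in pair 3 was under 2-fold on RPKM with pseudocount 1 (0.93), without 2N-3 C (0.98), without 4N-3 C (0.77) and without both libraries that stand apart (0.80; on reads 0.89), and it was not called with only the libraries of the pair. EPYC in pair 3 ranged from -1.54 to 0.12 on leaving out 1 library, with the sign turned without 4N-3 A. DCN in pair 3, 0.04 in the full fit, ranged from -0.32 (without 4N-3 C) to 0.40 on leaving out 1 library, with -0.06 without 2N-3 C, and was -0.28 without both libraries that stand apart. LUM over clone means went from -0.07 to 0.13 with pseudocount 1. LUM in pair 2 on reads ranged from -10.72 to -9.01. Members called were 2 in pair 1 and 6 in pair 2 in every such omission, and 2 to 3 in pair 3. Of 793 member values under an alternative, 771 kept direction and call and 7 changed sign. Many of these alternatives left out a library of another pair. That leaves a pair's log2 difference unchanged on RPKM and nearly so on reads, so the 771 is not a measure of stability.

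With the replicate letter as a replicate block, 138, 467 and 31 genes were called on RPKM and 1138, 3452 and 567 on reads in pairs 1, 2 and 3, 25 among diploid and 823 among tetraploid clones. Libraries with the same letter correlated at -0.12 to 0.22 in their deviations, so the letters are not taken to pair the samples. The planned count-model fits (edgeR and DESeq2) were not run. Members with few reads are limited by depth: KERA, OGN, ASPN and OMD could not be tested.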
